A study of Rattus norvegicus with 102 samples.

Results

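The transcripts of 4 GABA-A receptor alpha subunit genes, Gabra2, Gabra3, Gabra4 and Gabra5, were measured in the hippocampus of young and aged rats. They were taken by symbol and are 4 of the 26284 genes listed in the Illumina and WT tables and of the 26341 in the Ion Proton table. Their identifiers were ENSRNOG00000002349 (Gabra2) and ENSRNOG00000002336 (Gabra4) on chromosome 14, ENSRNOG00000010803 (Gabra5) on chromosome 1, and ENSRNOG00000016845 (Gabra3), which the tables also place on chromosome 1. RNA came from CA1, CA3 and dentate gyrus (DG) pieces of 34 male Fischer 344 rats, so that each table held 34 libraries a subfield. The young group (Y, n = 10) was 5 to 6 months old, and both aged groups were 17 to 22 months old. Aged rats had been classed by a water-maze probe trial as unimpaired (OG, n = 12) or impaired (OB, n = 12), an aged rat being impaired when it scored below every young rat. The sources name no transgene and no drug apart from brief isoflurane anaesthesia just before the tissue was taken. All rats had been through maze testing before then. The pieces held every cell type of a subfield, and neither CA2 nor the subiculum was taken separately, so that fewer cells of a type and less RNA per cell cannot be told apart in any value given here.

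GABA-A receptors are chloride channels built of several subunits around a central pore, and most of them contain alpha, beta and gamma or delta subunits. The alpha subunit sets the affinity for GABA, the response to benzodiazepines and much of where on the neuron the receptor sits. In the hippocampus, alpha2 is known from synapses on the soma and axon initial segment of principal cells, alpha4 joins delta in extrasynaptic receptors of dentate granule cells, and alpha5 carries much of the tonic current of pyramidal cells. Alpha3 is better known from deep cortical layers, the thalamic reticular nucleus and developing brain than from adult hippocampal principal cells.

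All 4 genes passed the filter on low values, which was a mean of 10 normalised reads, and none was at or under 3 reads in any library. A normalised read is a read count divided by the size factor of its library. The smallest read numbers in an Illumina library were 407 for Gabra2, 47 for Gabra3, 199 for Gabra4 and 318 for Gabra5. Depth per library ran from 3.25 M to 42.8 M reads in the Illumina table (10.7 M at the median), from 4.47 M to 21.4 M in Ion Proton and from 3.54 M to 20.6 M in WT. Across the libraries of all subfields, the Illumina and Ion Proton values correlated with r = 0.77 for Gabra2, 0.76 for Gabra3, 0.86 for Gabra4 and 0.82 for Gabra5, over points that share the rat and its RNA.

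The subfield labels were set against markers. A marker counted where its limma adjusted p was under 0.05 in the same direction in the Illumina and Ion Proton tables. The paper showed Wfs1, Nov, Ndst4 and Gpr161 among CA1 genes and Plk5, C1ql2 and Dsp among DG genes of these libraries. Their calls are therefore not an independent check. All 6 CA1 pyramidal markers tested in both tables were called higher in CA1 than in CA3 and DG. Another listed CA1 marker, Fibcd1, was low in Illumina (CA1 median 8.06) and was tested in Ion Proton only. There its median was lower for CA1 libraries (522) than for CA3 libraries (558), and 93.8 for DG libraries. Of the dentate granule markers, 6 of 6 were called higher in DG than in CA3 and 5 of 6 higher in DG than in CA1. Of 7 CA3 pyramidal markers, 4 were called higher in CA3 than in CA1, while against DG 1 was called higher in CA3 (Spock1) and 1 lower (Cpne4). By these markers, 15 libraries lay nearer another subfield than their own in both poly-A tables, 2 of them labelled CA1, 10 CA3 and 3 DG. Rat numbers fall into 2 series, 18 rats numbered below 9000 and 16 numbered from 9000 up, and 14 of the 15 libraries came from the higher numbers. The study tested rats at 2 sites, and the series hold as many young and aged rats as the sites, but the labels tie no rat to a site. The subfield results of the 4 genes and their CA1 results by water-maze class are therefore also given without these libraries and within each number series. Subfield results of the other GABA genes are given over all rats only.

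The genes differ in where they lie and in the sequence before their start sites. Gabra2 and Gabra4 share a cluster with Gabrb1 and Gabrg1, Gabra5 lies in a cluster with Gabrg3, and Gabra3 lies with Gabre and Gabrq. The 250 bases before the start site were read from RefSeq for the GRCr8 build, where 3 of the 4 genes had an entry and Gabra2 had none. They are shown because the 3 stretches contrast in base composition: Gabra3 lies on the minus strand at chrX:155543871-155544120, Gabra4 on the plus strand at chr14:36944497-36944746, and Gabra5 on the minus strand at chr1:117516607-117516856. The tables place the measured Gabra3 row on chromosome 1 and GRCr8 places the gene on X, so the stretch was matched to that row by symbol alone and the placements conflict. Capitals mark matches to GCGNGGGCG, a motif of the Egr type searched on both strands.
Gabra3: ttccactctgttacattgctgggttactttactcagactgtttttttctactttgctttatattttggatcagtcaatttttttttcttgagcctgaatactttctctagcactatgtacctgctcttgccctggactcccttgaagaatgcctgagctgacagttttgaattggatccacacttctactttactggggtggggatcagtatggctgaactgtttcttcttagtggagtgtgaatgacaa
Gabra4: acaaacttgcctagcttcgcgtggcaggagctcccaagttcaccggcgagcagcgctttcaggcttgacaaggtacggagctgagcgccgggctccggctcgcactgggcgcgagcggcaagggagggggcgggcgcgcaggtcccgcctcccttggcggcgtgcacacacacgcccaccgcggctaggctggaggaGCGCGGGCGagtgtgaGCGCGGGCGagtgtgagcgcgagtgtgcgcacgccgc
Gabra5: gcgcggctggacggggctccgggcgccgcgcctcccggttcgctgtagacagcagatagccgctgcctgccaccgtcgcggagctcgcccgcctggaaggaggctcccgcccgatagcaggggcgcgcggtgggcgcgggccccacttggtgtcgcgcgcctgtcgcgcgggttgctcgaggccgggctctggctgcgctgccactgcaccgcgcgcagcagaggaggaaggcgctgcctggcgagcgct
The Gabra3 stretch was 40.4% G or C and held 0 CpG dinucleotides. The Gabra4 stretch was 71.6% G or C with 33 CpG, more than 96.4% of all 33469 promoter stretches of this length. The Gabra5 stretch was 76.4% G or C with 37 CpG, more than 98.1% of them. GCGNGGGCG was found 2 times before Gabra4 and 0 times before the others, and 4.29% of all promoters held it. The E-box CACGTG was found in none of the 3, and 5.59% of all promoters held it. These matches are descriptions of the letters only.

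Between subfields, Gabra4 and Gabra2 were both highest in DG. Gabra5 over all rats was lowest in CA1, though in rats numbered from 9000 up it was level with CA3 in the Illumina table. Gabra3 showed no difference called in both poly-A tables over all rats. Levels of a gene were compared between libraries only, since no gene lengths were at hand to compare genes with each other.

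Gabra4, the partner of delta, had an Illumina level of 594 to 1285 normalised reads in CA1 (median 862), 375 to 1010 in CA3 (median 600) and 601 to 1471 in DG (median 1131). The mean was 865 ± 147 (SD, n = 34) in CA1, 609 ± 142 in CA3 and 1097 ± 204 in DG. The groups overlapped, but within a rat CA1 was above CA3 in 31 of 34 rats and DG was above CA3 in all but 2. By limma, the CA1 minus CA3 difference was 0.52 on the log2 scale (SE 0.07, adjusted p = 9.04e-10), with 0.44 in the Ion Proton table (adjusted p = 0.000143). CA1 lay below DG by a log2 difference of -0.34 (SE 0.07, adjusted p = 2.1e-05), and CA3 below DG by -0.86 (SE 0.07, adjusted p = 3.23e-19). The order of Gabra4 was thus DG, CA1, CA3, with every neighbour apart in both poly-A tables over all rats.

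Gabra2, the axon initial segment subunit, rose from CA1 to CA3 to DG. Its level was 685 to 1719 normalised reads in CA1 (median 1459), 729 to 2417 in CA3 (median 1817) and 1150 to 2566 in DG (median 2179), or 1378 ± 262, 1762 ± 353 and 2115 ± 290 (mean ± SD, n = 34 each). The ranges overlapped, and CA1 was above CA3 in 4 rats, CA1 above DG in 1 rat and CA3 above DG in 3 of the 34. The log2 difference was -0.35 for CA1 minus CA3 (SE 0.07, limma adjusted p = 3.49e-05), -0.63 for CA1 minus DG (adjusted p = 9.53e-13) and -0.28 for CA3 minus DG (adjusted p = 0.000406). The first of these had the weakest support in the Ion Proton table, where it was -0.32 with an adjusted p of 0.0442. This call was lost without any of 19 of 34 single rats, in each number series alone, with no filter on low values and without the deeply sequenced rats.

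Gabra5, the tonic current subunit of pyramidal cells, was lowest in CA1 over all rats. In rats from 9000 up its CA1 and CA3 means were 1831 and 1834 normalised reads in Illumina, and 1284.7 and 1438.5 in Ion Proton. Over all rats it spanned 903 to 2520 Illumina normalised reads in CA1 (median 1708), 1244 to 3791 in CA3 (median 2687) and 1140 to 3532 in DG (median 2399), or 1801 ± 332, 2560 ± 782 and 2420 ± 423. CA1 was above CA3 in 9 rats and above DG in 5, while CA3 was above DG in 17 of 34. The log2 difference was -0.46 for CA1 minus CA3 (SE 0.09, limma adjusted p = 7.46e-06) and -0.43 for CA1 minus DG (adjusted p = 1.53e-05), with -0.52 and -0.62 in the Ion Proton table. CA3 and DG could not be ordered, with a log2 difference of 0.03 (95% CI -0.14 to 0.20).

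Gabra3 had the widest spread for its level. It was 142 to 550 normalised reads in CA1 (median 340), 99.7 to 573 in CA3 (median 307) and 139 to 627 in DG (median 363). The coefficient of variation was 33.2%, 41.1% and 27.5%, against 13.7% to 30.5% for the other genes. The log2 difference was 0.09 for CA1 minus CA3 (95% CI -0.17 to 0.34, limma adjusted p = 0.636), -0.16 for CA1 minus DG (-0.42 to 0.09) and -0.25 for CA3 minus DG (-0.51 to 0.00). The Ion Proton table gave -0.41 and -0.43 for CA1 and CA3 against DG, with adjusted p of 0.0336 and 0.0227, which the Illumina table did not share.

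Counting a gene as called when its adjusted p was under 0.05 in both poly-A tables in the same direction, 3 of the 4 genes were called between CA1 and CA3, where 14.4% of the 13907 genes tested were. Between CA1 and DG 3 of 4 were called against 26.9% of all genes, and between CA3 and DG 2 of 4 against 28.5%. Without the 15 libraries nearer another subfield, the same genes were called for CA1 against CA3 and DG, and Gabra3 was added for CA3 minus DG with a log2 difference of -0.48. The WT table gave CA1 minus CA3 differences of -0.28 for Gabra2, 0.49 for Gabra4 and -0.44 for Gabra5.

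**Figure D1:**
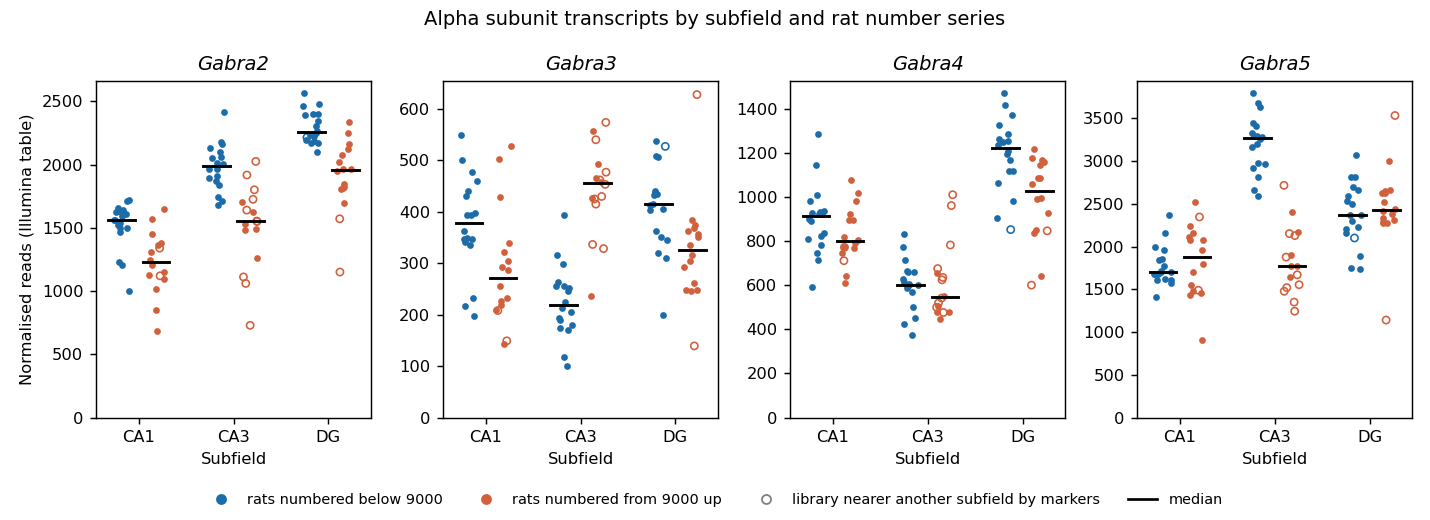
Illumina normalised reads (linear axis from 0) of each gene in CA1, CA3 and DG, 1 point per library, blue for rats numbered below 9000 and orange for rats from 9000 up, open where markers lay nearer another subfield, with a line at each median. In CA3 the Gabra5 medians were 3272 and 1772 and the Gabra3 medians 219 and 455, in opposite directions.

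The pooled CA3 values of Gabra3 and Gabra5 covered a split between the number series. In CA3, Gabra5 was 2595 to 3791 normalised reads in rats below 9000 (median 3272) and 1244 to 2716 in rats from 9000 up (median 1772), so that the ranges barely met. Gabra3 ran the other way, with 99.7 to 394 (median 219) against 236 to 573 (median 455). The log2 difference of the higher minus the lower numbers in CA3 was 1.012 for Gabra3 (limma adjusted p = 4e-09) and -0.83 for Gabra5 (adjusted p = 4.2e-13). Such a difference was widespread, since 57.3% of all genes tested had an adjusted p under 0.05 between the series in CA3. Gabra2 was also lower in CA3 of the higher numbers, by -0.42 (adjusted p = 5.3e-06), while for Gabra4 the value was 0.01 (adjusted p = 0.93).

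In rats below 9000 the CA1 minus CA3 difference of Gabra3 was 0.76 on the log2 scale, and in rats from 9000 up it was -0.67. The difference between them was -1.43 (limma adjusted p = 1.2e-08) and -1.41 in the Ion Proton table (adjusted p = 3.9e-05). For CA3 minus DG, Gabra3 had -0.89 and 0.47 (difference 1.37, adjusted p = 2.7e-08, Ion Proton 1.08 with adjusted p = 0.0019). Its pooled CA1 minus CA3 difference of 0.09 and CA3 minus DG difference of -0.25 thus covered opposite signs in the 2 series.

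Gabra5 likewise had a CA1 minus CA3 difference of -0.86 below 9000 and -0.01 from 9000 up (difference 0.84, limma adjusted p = 7e-08, Ion Proton 0.58 with adjusted p = 0.08). Its CA3 minus DG difference was 0.44 and -0.43 (difference -0.87, adjusted p = 2.2e-08, Ion Proton -1.03 with adjusted p = 0.00056). Without the libraries nearer another subfield, the 4 differences between series were -1.32 and 1.30 for Gabra3 and 0.73 and -0.79 for Gabra5, each with an adjusted p no higher than 6.42e-06. Leaving these libraries out did not make the series alike in markers. The CA3 libraries kept from 9000 up also lay below every CA3 library under 9000 in summed CA3 markers. Of all genes, 39.7% had such a difference between series for CA1 minus CA3 and 48.4% for CA3 minus DG, against 0.839% for CA1 minus DG.

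Gabra2 and Gabra4 kept their direction in both series, but not every call. With each series analysed alone, Gabra4 was called for CA1 minus CA3 below 9000 and not from 9000 up, for CA3 minus DG in both and for CA1 minus DG in neither. Gabra2 was called for CA1 minus DG in both, for CA3 minus DG from 9000 up and for CA1 minus CA3 in neither. Gabra2 was lower in CA1 than in CA3 by -0.39 and -0.30 (test of the difference, limma adjusted p = 0.53) and lower in CA1 than in DG by -0.61 and -0.66. Gabra4 was higher in CA1 than in CA3 by 0.58 and 0.45 (adjusted p = 0.47), and lower in CA3 than in DG by -0.996 and -0.698 (adjusted p = 0.054, or 0.0365 with the rat as a replicate block). Without the libraries nearer another subfield the latter pair was -1.02 and -0.97 (adjusted p = 0.797). The CA1 minus DG differences of Gabra3 and Gabra5 had the values -0.07 and -0.02 for the higher minus the lower numbers.

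**Figure D2:**
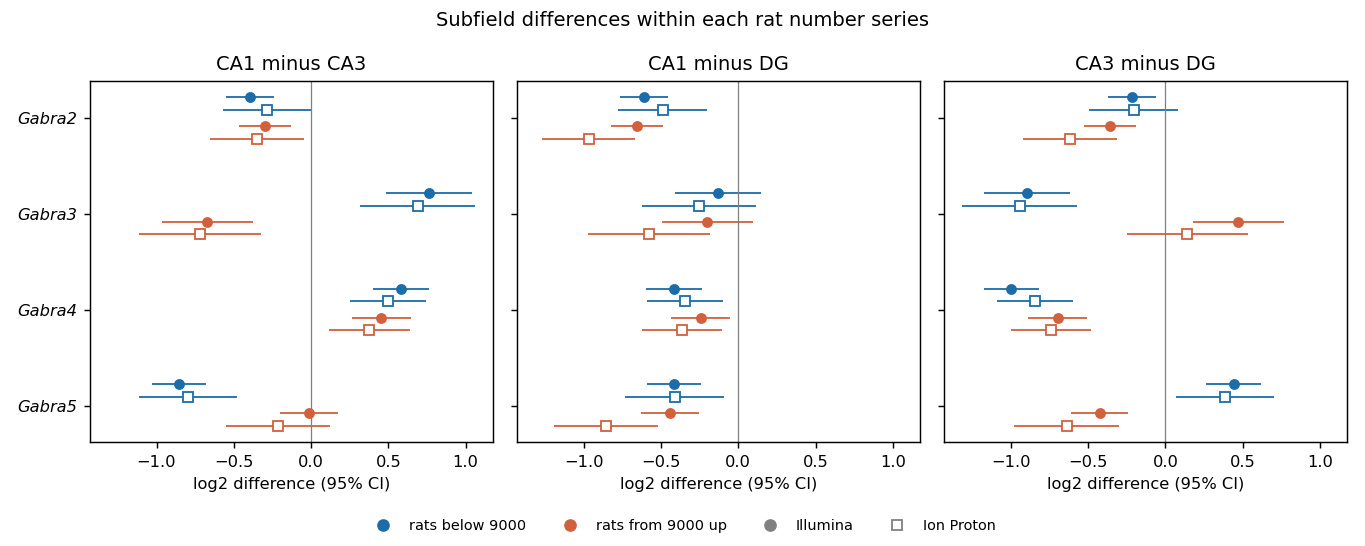
Log2 differences between subfields with 95% confidence intervals for each gene, in rats numbered below 9000 (blue) and from 9000 up (orange), filled for Illumina and open for Ion Proton. Gabra3 CA1 minus CA3 lies at 0.76 and -0.67 in the Illumina table, on opposite sides of 0, while the Gabra4 values of 0.58 and 0.45 lie on the same side.

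Markers moved with this split, and their part in it was not tested. In CA3 libraries the summed CA3 marker level was 9264 to 16255 normalised reads in rats below 9000 and 3088 to 7773 in rats from 9000 up, with no overlap. The summed CA1 markers of the same libraries had medians of 3818 and 7517, and the summed CA2 markers 5111 and 3275. In DG the summed CA3 markers had medians of 9680 and 9917 in the series.

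In the Illumina table, Gabra5 was high and Gabra3 low in CA1 libraries with high CA2 markers and in DG libraries with high CA3 markers. Most of the CA3 markers were not called higher in CA3 than in DG, so their sum does not mark CA3 tissue within DG. In CA1 the log2 level of Gabra5 correlated with summed CA2 markers with r = 0.87 below 9000 (n = 18) and 0.92 from 9000 up (n = 16), and that of Gabra3 with -0.81 and -0.84. CA1 markers gave 0.82 and 0.45 for Gabra5 and -0.73 and -0.16 for Gabra3 in the same libraries. In DG the correlation with summed CA3 markers was 0.77 and 0.93 for Gabra5 and -0.67 and -0.75 for Gabra3. Over the 34 CA1 libraries the Ion Proton table gave 0.63 for Gabra5 and -0.28 for Gabra3 with the CA2 markers, against 0.90 and -0.70 in the Illumina table. Over the 34 DG libraries it gave 0.86 for Gabra5 and -0.03 for Gabra3 with the CA3 markers, against 0.88 and -0.68 in the Illumina table, so that the Gabra3 relation in DG was not seen there. The points of such a correlation share the library, its depth and the composition of the piece, so the values are descriptions.

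Gabra4 went with dentate granule markers, with r = 0.94 in DG in each series (0.77 and 0.83 in Ion Proton) and 0.75 and 0.76 in CA1, but -0.27 and 0.92 in CA3. Gabra3 and Gabra5 correlated negatively in Illumina, with -0.76 and -0.79 in CA1 of the series, -0.34 and -0.32 in CA3 and -0.48 and -0.85 in DG. The WT values were also negative, with -0.66 and -0.59 for the CA1 libraries, -0.44 and -0.22 for CA3 and -0.39 and -0.32 for DG. The Ion Proton values were mixed in sign, with 0.20 and -0.35 for CA1, 0.49 and 0.36 for CA3, and for DG 0.30 and -0.18.

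The balance between the alpha subunits was compared as the log2 ratio of a pair within each library, of which only differences between libraries can be read. Between CA1 and CA3, 5 of the 6 pairs differed by a paired permutation test with 100000 resamples, adjusted over the 18 tests. With Ion Proton values 2 of them did and with WT values 3, Gabra4 to Gabra5 and Gabra2 to Gabra4 being in both. The ratio of Gabra2 to Gabra3, at -0.44 over all rats, turned to 0.37 in rats from 9000 up, and that of Gabra3 to Gabra4, at -0.43, turned to 0.18 in rats below 9000. The ratio of Gabra4 to Gabra5 was higher in CA1 by 0.98 in 30 of 34 rats, and that of Gabra2 to Gabra4 was lower by -0.87, being higher in CA1 in 2 rats (permutation test, adjusted p = 7.2e-05 for both, from the smallest p the resamples can give, 2e-05). The Ion Proton value for Gabra4 to Gabra5 was 0.97. In rats below 9000 this ratio was higher in CA1 in 18 of 18 rats, by 1.44, and in rats from 9000 up in 12 of 16, by 0.47.

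Between CA3 and DG, 4 of 6 ratios differed. They were Gabra4 to Gabra5 at -0.89 (higher in CA3 in 3 of 34 rats), Gabra3 to Gabra4 at 0.61 (in 24 of 34), Gabra2 to Gabra4 at 0.57 (in 32 of 34) and Gabra2 to Gabra5 at -0.32 (in 9 of 34), each with an adjusted p of 0.0017 or lower by the permutation test. The last of these was 0.068 in rats from 9000 up alone. Each pooled ratio that holds Gabra3 or Gabra5 mixes series in which the CA3 minus DG value of that gene had opposite signs. The ratio of Gabra3 to Gabra5 was higher in CA1 than in CA3 by 0.55 over all rats (permutation test, adjusted p = 0.041), but by 1.62 in 18 of 18 rats below 9000 and by -0.66 from 9000 up, where 4 of 16 rats had it higher in CA1. Between CA1 and DG, 3 of 6 ratios differed, all 3 with Gabra2 as numerator and lower in CA1, namely Gabra2 to Gabra4 by -0.30 (adjusted p = 7.2e-05), Gabra2 to Gabra3 by -0.47 (adjusted p = 0.0043) and Gabra2 to Gabra5 by -0.20 (adjusted p = 0.024, all from the permutation test). Fewer ratios were called for this pair in Ion Proton and in rats from 9000 up alone, and more without the libraries nearer another subfield.

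The other genes of GABA signalling give the setting, over all rats and not by number series. Of 15 other GABA-A subunit genes, 10 were tested in both poly-A tables. The shares of all tested genes called, against which each count of a list is to be read, were 14.4% for CA1 minus CA3, 26.9% for CA1 minus DG and 28.5% for CA3 minus DG. Between CA1 and CA3, 3 were called higher and none lower, namely Gabrd (the delta partner of Gabra4) at 1.27 on the log2 scale, Gabrr2 (rho) at 1.08 and Gabrb2 at 0.35. Between CA3 and DG, 1 was called higher (Gabrg3, 0.86) and 5 lower, among them Gabrd at -1.61 and Gabrr3 at -1.02. Gabrd thus had its mean levels in the order of Gabra4, with 424 ± 113, 200 ± 123 and 549 ± 153 normalised reads in CA1, CA3 and DG (mean ± SD, n = 34), though it was not called between CA1 and DG. Between CA1 and DG, 2 were called higher (Gabrr2 1.79, Gabrg3 0.47) and 3 lower, among them Gabrr3 at -0.55. The median log2 difference of the list was 0.27, -0.10 and -0.16 for CA1 minus CA3, CA1 minus DG and CA3 minus DG, against 0.01, 0.00 and 0.01 over all genes.

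Among the cluster neighbours, Gabrg3, beside Gabra5, was higher than in DG in both CA1 and CA3. Gabrb1, beside Gabra2 and Gabra4, had log2 differences of -0.36, -0.37 and -0.02 in the Illumina table and -0.05 and 0.04 for the former 2 in the Ion Proton table, and was not called. Gabrg1 was not called in both tables either. Gabrq and Gabre, beside Gabra3, were low, with means of 5.87 to 14.7 and 5.26 to 9.97 normalised reads, and neither was tested in both tables.

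Of 8 genes of GABA synthesis and transport, 4 were called higher in CA3 than in DG and none lower, where 28.5% of all genes were called, led by Slc32a1 (the vesicular GABA transporter, 0.39) and Slc6a11 (a plasma membrane GABA transporter, 0.36). Against DG, CA1 had 2 called higher and none lower, Abat (GABA breakdown, 0.35) and Slc32a1 (0.31), and against CA3 none higher and 1 lower. Of 21 genes of the inhibitory synapse scaffold and receptor trafficking, 20 were tested, and 1 was higher and 3 lower in CA1 than in CA3, 2 higher and 4 lower in CA1 than in DG, and 3 higher and 4 lower in CA3 than in DG. With 4, 6 and 7 of 20 called, this list lay near the shares over all genes of 14.4%, 26.9% and 28.5%. Among them, Shisa7, an auxiliary protein of the receptor, was at 0.36 for CA1 minus CA3 and Igsf9b (an inhibitory synapse adhesion protein) at 0.72 for CA1 minus DG. Gabbr2, a GABA-B receptor subunit, was lower in CA1 than in CA3 (-0.21) and DG (-0.45) and lower in CA3 than in DG (-0.23). The chloride transporters moved unlike each other, with Slc12a5 (the exporter KCC2) at 0.27 for CA1 minus CA3 and -0.28 for CA3 minus DG, and Slc12a2 (the importer NKCC1) at 0.40 for CA1 minus DG and 0.51 for CA3 minus DG.

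The genes with the most similar pattern were found by correlation over all Illumina libraries among 13906 genes. For Gabra2 they were Slit1 (r = 0.94), Ptpre (0.92) and Astn1 (0.92). For Gabra3 they were Atp2b4 (0.91), Grik3 (0.82) and Pak6 (0.81), for Gabra4 Epha7, Rab40b and Jph1 (0.95 each), and for Gabra5 Nrip3 (0.93), Acsl5 (0.93) and Rspo2 (0.91). In Ion Proton the values for Gabra4 and Gabra5 were 0.88, 0.80 and 0.79 and 0.84, 0.90 and 0.62, while they were as low as 0.32 for Slit1 and 0.21 for Pak6. The libraries share depth and piece composition, and the values are descriptions.

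Age was compared as both aged groups against the young group in each subfield. None of the 4 genes passed the test for age in any subfield. The Illumina log2 difference of aged minus Y in CA1 was -0.04 for Gabra2 (95% CI -0.27 to 0.19), 0.10 for Gabra3 (-0.28 to 0.47), -0.11 for Gabra4 (-0.29 to 0.07) and -0.09 for Gabra5 (-0.30 to 0.11). In CA3 the values were 0.01, 0.01, 0.10 and -0.04, the widest interval being -0.47 to 0.49 for Gabra3. In DG they were -0.03, 0.23, -0.04 and -0.12, with -0.07 to 0.54 for Gabra3.

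By limma, 0 of the 4 genes had an adjusted p under 0.05, and 0 had a p under 0.05 before adjustment. Of all genes, 0.338% had an adjusted p under 0.05 in CA1, 0.3% in DG and 0% in CA3, where 471 of 14246 had an unadjusted p under 0.05 and edgeR and DESeq2 called 9 and 17. None of the 4 passed the less strict retest rule either, which asks for an Illumina p under 0.01 and a one-sided Ion Proton p under 0.05 in the same direction and was met by 0.851%, 0.402% and 1.09% of genes in CA1, CA3 and DG. The count of the 4 genes meeting that rule was also 0 without the libraries nearer another subfield and in each number series alone. No gene of the 5 GABA lists passed either rule for age.

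**Figure D3:**
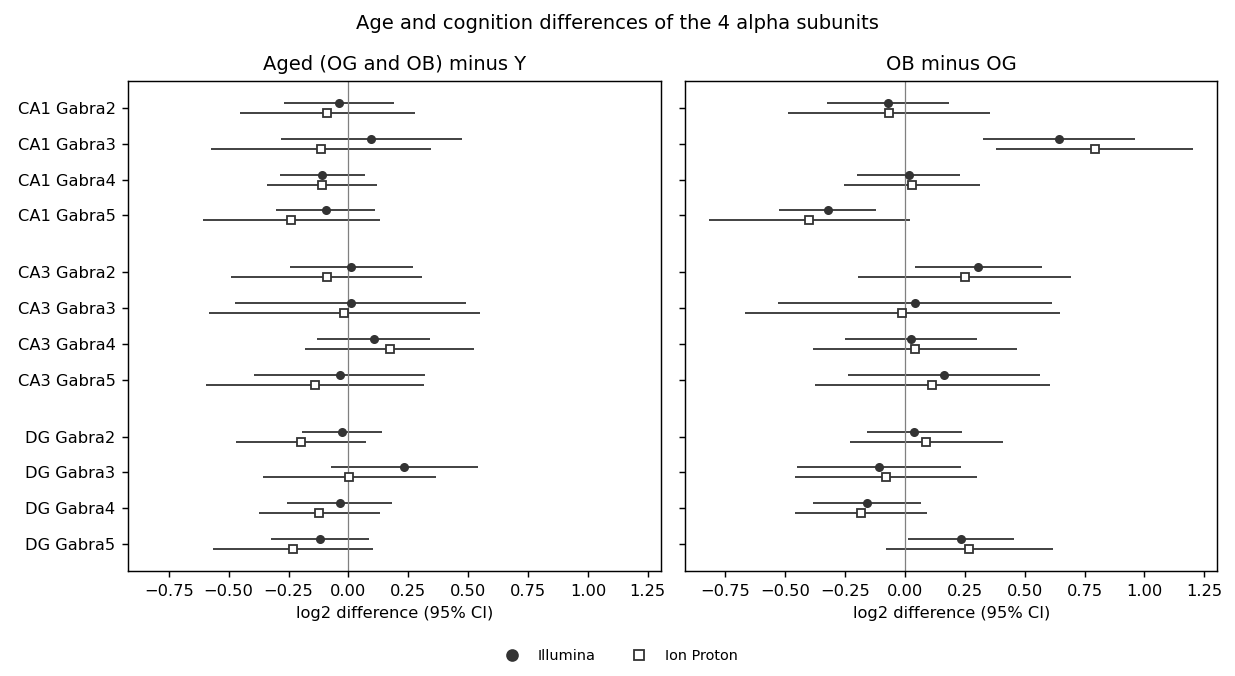
Log2 differences with 95% confidence intervals for aged minus Y and for OB minus OG in CA1, CA3 and DG, with filled circles for Illumina and open squares for Ion Proton. The age intervals all span 0, while in CA1 Gabra3 lies at 0.64 and Gabra5 at -0.32 for OB minus OG in the Illumina table.

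Cognitive class was compared as OB minus OG, which separates aged impaired from aged unimpaired rats of the same age range. In CA1, Gabra3 was higher and Gabra5 lower in the impaired rats, in all 3 tables, although neither passed adjustment over all genes. For Gabra2 and Gabra4 the interval of the difference spanned 0 in each table.

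The CA1 level of Gabra3 was 255 to 550 normalised reads in OB (median 429), 149 to 500 in OG (median 229) and 142 to 528 in Y (median 320). The groups overlapped, yet 12 of 12 OB rats lay above the OG median. The log2 difference OB minus OG was 0.64 (SE 0.15, 95% CI 0.32 to 0.96, limma p = 0.000315, adjusted p = 0.407). In the Ion Proton table Gabra3 spanned 227 to 666 in OB and 101 to 342 in OG (log2 difference 0.79, p = 0.000501 by limma), and in the WT libraries 225 to 391 and 143 to 354 (0.54, p = 0.000127, adjusted p = 0.29 by limma).

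The CA1 level of Gabra5 was 903 to 1992 normalised reads in OB (median 1617), 1489 to 2370 in OG (median 2017) and 1461 to 2520 in Y (median 1813). The groups overlapped, and 0 of 12 OB rats lay above the OG median. The log2 difference was -0.32 (SE 0.10, 95% CI -0.53 to -0.12, limma p = 0.00306, adjusted p = 0.562). The Ion Proton value was -0.40 (two-sided p = 0.0608 and one-sided p = 0.0304 by limma), where 2 of 12 OB rats lay above the OG median, and the WT value was -0.24 (p = 0.0153 by limma).

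Both genes met the retest rule, so that 2 of 4 were called where 0.635% of 13867 genes were (88 genes, 53 or 0.382% higher and 35 or 0.252% lower). The 4 genes were chosen with earlier results of these data known. The paper had already reported Gabra5 as lower in CA1 of impaired rats from the same RNA. The count is therefore not an independent test of the 4 genes as a set. With adjustment, limma called 0 of 14205 genes in CA1 with 811 at an unadjusted p under 0.05, edgeR called 0 with 831 and DESeq2 called 3 with 843. For the other subunits the CA1 difference was -0.07 (95% CI -0.32 to 0.18) for Gabra2 and 0.02 (-0.20 to 0.23) for Gabra4. Without the libraries nearer another subfield, Gabra3 had 0.53 and Gabra5 -0.33, and both still met the rule.

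Leaving out single rats moved Gabra3 between 0.57 and 0.73 and lost its call in 0 of 24 cases. For Gabra5 the range was -0.36 to -0.25, and the call was lost without R1930 or R9782 (both OG) or without R9870 or R9874 (both OB), at -0.25 without R9870. It was also lost with edgeR and with DESeq2 (-0.31 each), with the WT table in place of Illumina (-0.24) and without the deeply sequenced rats (-0.29). Within the number series, Gabra3 had 0.49 below 9000 (p = 0.0127 by limma) and 0.75 from 9000 up (p = 0.000855), and the difference between series was 0.26 (p = 0.336). Gabra5 had -0.16 (p = 0.239 by limma) and -0.53 (p = 0.00101), with a difference of -0.37 (p = 0.0643). Gabra4 had opposite values in the series, -0.22 and 0.28, with a difference of 0.50 (limma p = 0.0146, adjusted p = 0.958, Ion Proton 0.73 with p = 0.0034).

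**Figure D4:**
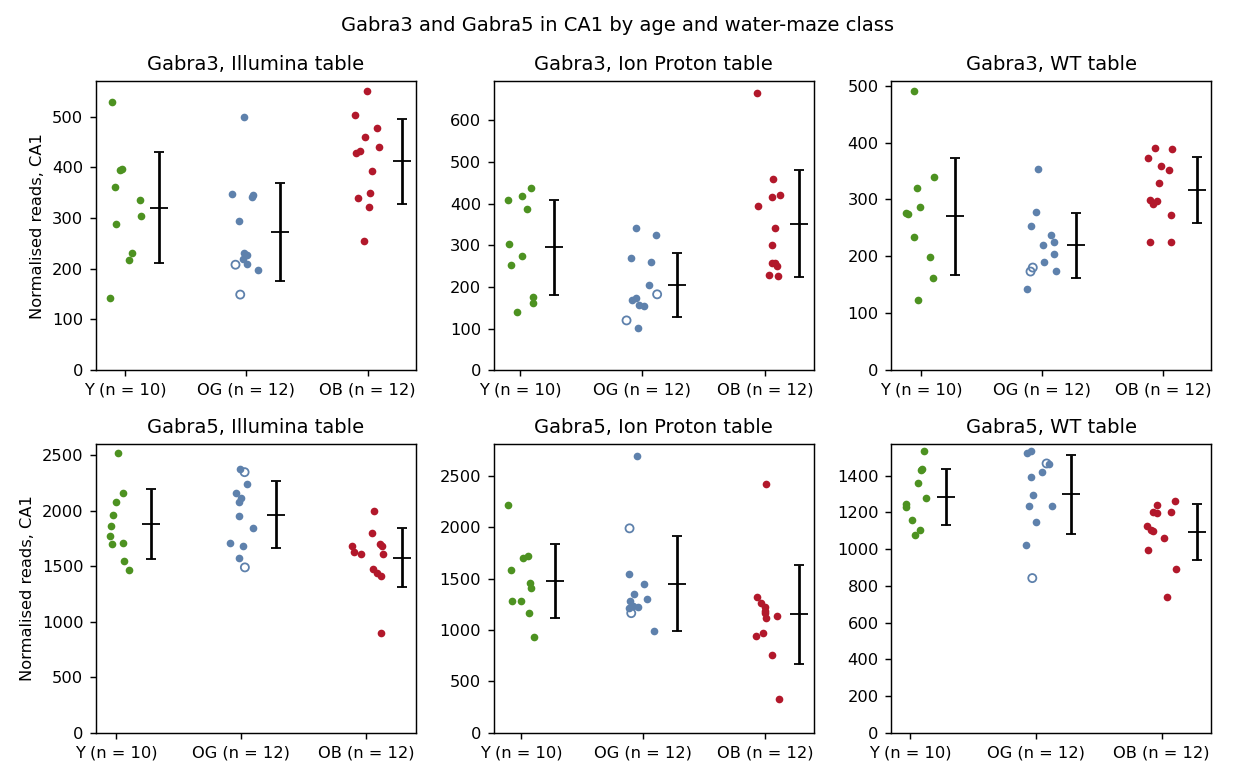
CA1 normalised reads of Gabra3 and Gabra5 in the Illumina, Ion Proton and WT tables for Y, OG and OB rats (linear axis from 0), 1 point per rat, open where the library lay nearer another subfield, with mean and SD bars. The Illumina OB medians were 429 for Gabra3 and 1617 for Gabra5, against 229 and 2017 in OG.

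Markers of neighbouring regions mostly went 1 way between the same CA1 groups, none past adjustment by limma, and their part in the result was not tested. Of all genes, 811 of 14205 had an unadjusted limma p under 0.05 in Illumina and 298 of 15278 in Ion Proton. The summed CA2 markers, which went with Gabra5 across CA1 libraries, were 1897 to 4695 normalised reads in OB (median 4104) and 3551 to 6197 in OG (median 4684), and 5 of 6 were lower in OB, with Necab2 at -0.29 (limma p = 0.0382). The summed CA3 markers were 3233 to 6955 in OB and 3916 to 8715 in OG, and 6 of 7 were lower, with Bok at -0.37, Slc9a4 at -0.47 and Cpne4 at -0.62 under an unadjusted p of 0.05. The subiculum and cortex markers, with which Gabra3 correlated in CA1 with r = 0.66 below 9000 (n = 18) and 0.78 from 9000 up (n = 16), summed to 4151 to 6697 in OB and 3249 to 5525 in OG, and 5 of 7 were higher. That correlation is from the Illumina table, and over the 34 CA1 libraries it was 0.62 there, -0.08 in Ion Proton and 0.68 in WT. Gabra5 correlated negatively with the same markers, with -0.61, -0.81 and -0.42. In Ion Proton, 4 of 5 CA2 markers and 7 of 7 CA3 markers were lower in OB, and 6 of 7 subiculum and cortex markers were higher. An unadjusted limma p under 0.05 was reached by 0, 1 and 2 of them there, and by 1, 3 and 2 in Illumina.

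Tbr1, a transcription factor of subicular and deep cortical neurons, was at 0.56 for OB minus OG (limma p = 0.00175, Ion Proton 0.58 with p = 0.032) and met the retest rule, as the only marker of these lists. Slc17a6, a vesicular glutamate transporter, was at 0.70 (limma p = 0.0239). The summed CA1 markers were 9804 to 16645 in OB and 2692 to 26165 in OG. Among dentate markers, 6 of 6 were higher in OB in both poly-A tables, 0 with an unadjusted p under 0.05 by limma in the Illumina table and 1 in the Ion Proton table. Of interneuron markers, 5 of 8 were higher in OB in the Illumina table and 8 of 9 in Ion Proton, 0 with an unadjusted p under 0.05 by limma in either. Over the 34 CA1 libraries Gabra3 correlated with the summed interneuron markers with r = 0.49 in Illumina, 0.48 in Ion Proton and -0.08 in WT.

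The ratio of Gabra3 to Gabra5 within a CA1 library combined the 2 differences. On the log2 scale it was -2.73 to -0.84 in OB (median -2.01), -3.97 to -1.75 in OG (median -2.95) and -4.14 to -1.47 in Y (median -2.38). The groups overlapped, and 12 of 12 OB rats lay above the OG median. The difference OB minus OG was 0.97 (permutation test, p = 0.0005, adjusted p = 0.0180 over 36 tests), with 1.19 in Ion Proton (adjusted p = 0.00216) and 0.79 in WT (adjusted p = 0.0180). This adjustment covers only ratios of genes chosen with earlier results of these data known, so it does not allow for that choice. Neither gene alone passed adjustment over all genes. Without the libraries nearer another subfield it was 0.87 (permutation test, adjusted p = 0.0770). By an exact permutation test within the series it was 0.64 below 9000 (p = 0.0338, adjusted p = 0.406, 7 against 6 rats) and 1.28 from 9000 up (p = 0.00433, adjusted p = 0.0779, 5 against 6), where 0.00433 is the smallest p that these numbers of rats allow.

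The ratio of Gabra2 to Gabra3 in CA1 was lower in OB by -0.71 (permutation test, adjusted p = 0.0292), and by -0.63 (adjusted p = 0.109) without those libraries. None of the other 34 ratio comparisons of groups passed the adjusted threshold. That of Gabra3 to Gabra4 in CA1 came to 0.63 (permutation test, adjusted p = 0.0802).

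**Figure D5:**
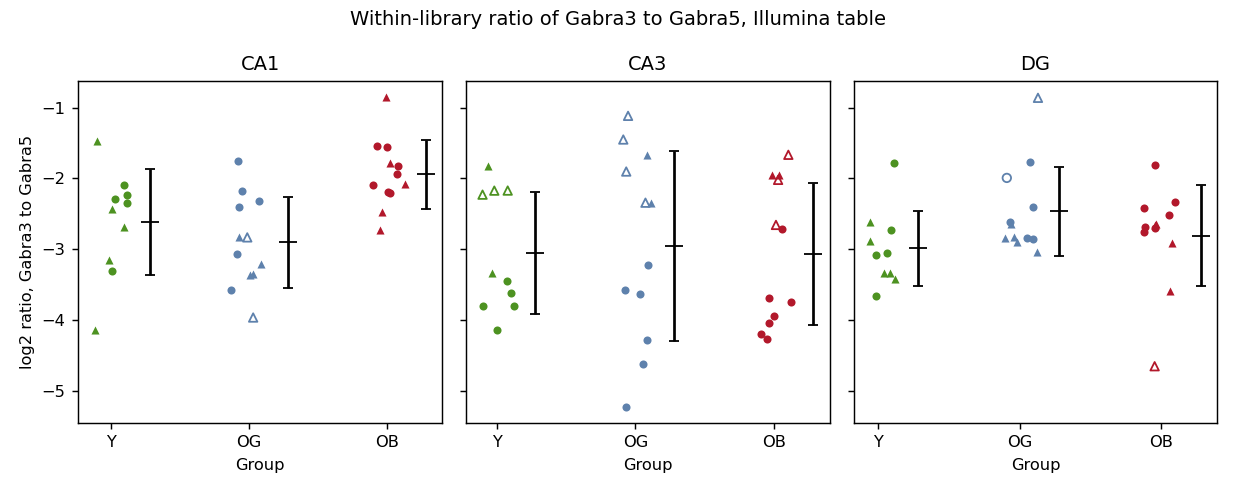
Log2 ratio of Gabra3 to Gabra5 within each Illumina library in CA1, CA3 and DG for Y, OG and OB rats, circles for rats below 9000, triangles for rats from 9000 up, open where the library lay nearer another subfield, with mean and SD bars. In CA1 the OB median of -2.01 lies above the OG median of -2.95.

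In CA3 and DG, 0 of 4 genes met the retest rule for OB minus OG, where 0.0216% and 0.124% of all genes did. In CA3, Gabra2 was 1621 to 2181 normalised reads in OB (median 1989) and 729 to 2102 in OG (median 1618), a log2 difference of 0.31 (limma p = 0.025, adjusted p = 1, Ion Proton 0.25 with p = 0.261). Without the libraries nearer another subfield it was 0.14, and it was 0.08 in rats below 9000 alone and 0.50 in those from 9000 up alone. In DG, Gabra5 was 1888 to 3532 in OB (median 2407) and 1140 to 2625 in OG (median 2291), a log2 difference of 0.23 (limma p = 0.0391, adjusted p = 0.999, Ion Proton p = 0.126). Of 12 OB rats, 9 lay above the OG median in Illumina, 8 in Ion Proton and 4 in WT. The Illumina difference was 0.15 to 0.27 on leaving out single rats (0.15 without R9865) and 0.10 without the libraries nearer another subfield. Limma called 0 genes in either subfield after adjustment, with 199 and 539 genes at an unadjusted p under 0.05, and edgeR and DESeq2 called 0 as well, with 190 and 198 in CA3 and 522 and 519 in DG. Of the 5 GABA lists, only Gabrb1 met the retest rule for OB minus OG, in CA3 (0.28, limma p = 0.00692, adjusted p = 1, WT 0.06).

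The difference of the class effects between subfields was tested itself. For Gabra5, CA1 minus DG was -0.56 (limma p = 0.00885, Ion Proton -0.67 with p = 0.0319) and CA1 minus CA3 was -0.49 (p = 0.0217). For Gabra3, CA1 minus DG was 0.75 (limma p = 0.0169, Ion Proton 0.87 with p = 0.0175). Every adjusted p was 0.95 or higher, and limma called 0 of 14186 genes, with 647, 494 and 261 at an unadjusted p under 0.05 for CA1 minus CA3, CA1 minus DG and CA3 minus DG. The corresponding age differences called 0 of 14179 genes, with 274, 50 and 150 at an unadjusted p under 0.05.

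Each aged group was also set against the young rats, a pair of comparisons that shares the Y libraries. In CA1, Gabra3 had -0.23 for OG minus Y and 0.42 for OB minus Y (limma p = 0.0214 for the latter), and Gabra5 had 0.07 and -0.26 (p = 0.0225 for the latter by limma). The Ion Proton table gave -0.51 (limma p = 0.0374) and 0.28 (p = 0.201) for Gabra3, and -0.04 (p = 0.793) and -0.44 (p = 0.0474) for Gabra5. In the Illumina table the young median lay between those of the aged groups for both genes, while in Ion Proton that of Gabra5, 1435, lay above both, 1288 in OG and 1149 in OB. In DG, Gabra5 had -0.24 for OG minus Y (limma p = 0.0429).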

How the data were processed

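RNA of CA1, CA3 and DG from 34 rats was measured in 3 tables. The deposited values are a signal, gene read counts that the authors divided by DESeq2 size factors, and whole reads were recovered for 100% of values within 0.001 of a read. Illumina poly-A reads were demultiplexed by the authors with bcl2fastq 2.17, trimmed with CutAdapt 1.8.3, mapped to rn5 with STAR 2.5 and counted per gene with featureCounts 1.4.4, and the submitters' processing notes name DESeq2 1.16.1. The Ion Proton libraries were made from the same RNA, aligned with TopHat2 and Bowtie2 and counted likewise. The aligner and counter of the WT libraries are not given in the sources used here. The sources name different TruSeq kits, so use of strand is unclear and reads of overlapping genes cannot be told apart. Tables were normalised separately and tested separately.

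Values were tested as log2(value + 1) with limma 3.58.1 (trend, R 4.3.3), on genes with a mean of 10 or more and with p-values adjusted by Benjamini-Hochberg over all genes. The study used DESeq2. DESeq2 1.42.0 and edgeR 4.0.16 were run on the recovered reads as alternatives. Ratios were tested by permutation with scipy 1.17.1. Scripts were tested on simulated data. Replicates are separate rats. The same rat gave all 3 subfields, so rat numbers pair subfield libraries, and the correlation of same-rat deviations had a median of 0.087 for CA1 and CA3, 0.189 for CA1 and DG and -0.032 for CA3 and DG. The 4 genes and the lists were chosen with earlier results of these data known. The text names all 4 genes, the neighbours in their clusters, the 3 largest called changes of each GABA list and the 3 genes most like each member, except some that are not reported here. Division of rats by number series was chosen after seeing the data, as was each test of a difference between them. Other alternatives were the pseudocount, the filter, a replicate block and leaving out rats or libraries. Reference sequences are from RefSeq (GRCr8).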

Additional observations from a re-analysis of the deposited data

Results flagged for a closer look

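In 36 groups of 10 rats (each gene, subfield and table for Y), 1 library stood apart from the rest. In the DG libraries of the WT table, Gabra4 was 553.3 normalised reads in the young rat R9881, against 818.8 in the nearest of the other rats and 1047 in the highest. Chance puts about 1 in 20 such groups past this limit.

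For 2 genes the subfield difference itself differed between the rats numbered from 9000 up and those below, by limma on the Illumina table. For Gabra5 the difference between series was 0.842 on the log2 scale for CA1 minus CA3 and -0.867 for CA3 minus DG. For Gabra3 it was -1.43 for CA1 minus CA3 and 1.37 for CA3 minus DG. All 4 had the same sign in the Ion Proton table, and the Gabra5 value for CA1 minus CA3 had an adjusted p of 0.08 there. The summed CA3 markers of the CA3 libraries differed between these series without overlap, and their part was not tested.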

How the results depend on the processing

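Across the alternatives other than leaving out 1 rat, 620 of 678 single-gene and ratio values kept their side of the threshold without a turn in a called direction, 35 lost the threshold, 13 gained it and 10 reversed. Among the 620 were 74 that changed sign while short of the threshold in both settings. All 10 reversals came from analysing a number series alone. In rats from 9000 up, Gabra3 was at -0.67 for CA1 minus CA3 and 0.47 for CA3 minus DG, and Gabra5 at -0.43 for CA3 minus DG. The ratios reversed there were Gabra2 to Gabra3 (0.37), Gabra2 to Gabra5 (-0.28) and Gabra3 to Gabra5 (-0.66) for CA1 minus CA3, and Gabra2 to Gabra5 (0.068) and Gabra3 to Gabra5 (0.90) for CA3 minus DG. In rats below 9000, Gabra3 to Gabra4 was at 0.18 for CA1 minus CA3 and Gabra2 to Gabra3 at 0.68 for CA3 minus DG.

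For CA1 minus CA3, 3 genes were called over all rats, and in rats from 9000 up alone 1 was, Gabra3, which was not among the 3 and had the opposite sign to its value over all rats. Of the 2 genes called for OB minus OG in CA1, 1 (Gabra3) was called by DESeq2, by edgeR, with WT in place of Illumina and without the deeply sequenced rats, and 0 in rats below 9000 alone. Leaving out single rats gave 1 to 2 genes there, 2 to 3 for CA1 minus CA3 and CA3 minus DG, 3 for CA1 minus DG and 0 in the other comparisons. The ratios called went from 5 to 2 in Ion Proton and 3 in WT for CA1 minus CA3, from 3 to 1 in Ion Proton, 5 without libraries nearer another subfield and 1 in rats from 9000 up for CA1 minus DG, and from 2 to 0 for OB minus OG in CA1 without those libraries and in either series, where the numbers of rats limit the p that can be reached. Over single rats left out, the Illumina value of Gabra2 for CA1 minus CA3 spanned -0.39 to -0.32. Without R9781, Gabra3 was called for CA3 minus DG at -0.31. The causes were not tested. With the rat as a replicate block, 3, 3 and 2 genes were called between subfields, and the block changed no subfield call.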
